A study of Homo sapiens with 6 samples.

Results

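FAS and the TRAIL receptors are cell surface proteins of the tumour necrosis factor receptor superfamily that can start apoptosis. The 10 genes described here encode FAS, the TRAIL receptors TNFRSF10A to TNFRSF10D, the related receptor TNFRSF21, the adaptor FADD, the initiator caspase CASP8, its inhibitor CFLAR and the ligand TRAIL itself (TNFSF10). They were chosen by gene symbol, and all 10 were found under their current symbols among the 25211 gene names on the array. Their expression was measured on Illumina bead arrays in the established human melanoma line A375, in 3 arrays from cells treated with leflunomide and in 3 arrays from cells given DMSO, the solvent. The drug was used at 25 µM and both treatments lasted 3 days, after 100000 cells had been seeded in each flask in DMEM with serum. Leflunomide is an inhibitor of dihydroorotate dehydrogenase, a mitochondrial enzyme of pyrimidine synthesis. The comparison asks which transcripts differ between cells with and without the drug. Whether the 3 arrays of a treatment stem from separate flasks is not stated in the labels, and the p-values therefore cover the spread between arrays alone, which may be technical.

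When a death ligand binds FAS, TNFRSF10A or TNFRSF10B, the death domain in the receptor's cytoplasmic tail recruits FADD, and FADD recruits CASP8, which is activated by proximity and cleaves downstream caspases. CFLAR resembles CASP8 but lacks its protease activity and competes for the same complex. TNFRSF10C and TNFRSF10D bind TRAIL without a functional death domain and are known as decoy receptors. FAS, TNFRSF10A and TNFRSF10B are known transcriptional targets of the tumour suppressor p53, and CFLAR of NF-kB. In the RefSeq annotation the 4 TRAIL receptor genes lie next to each other with 0 other protein-coding genes between neighbours, while CFLAR and CASP8 are separated by 1 gene, CASP10.

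Over all genes 1 array, leflunomide replicate 3, differed from the rest. Across genes, its correlation with each of the other 5 arrays was 0.890 to 0.902 on normalized log2 values, against 0.988 to 0.997 among those 5. The mean signal was 262, 343 and 129 on leflunomide arrays 1, 2 and 3, against 325, 371 and 318 on the DMSO arrays. Between 11816 and 13739 rows were above background (detection p under 0.05) on leflunomide arrays, against 13793 to 14020 on DMSO arrays. Every result is therefore given with and without that array. Of 11 markers of the melanocyte lineage, SOX10, S100A1 and CSPG4 were above background on all 6 arrays, whereas 5, namely MLANA, TYR, DCT, TYRP1 and S100B, were so on none. Of the markers of other cell types, the leukocyte gene PTPRC, the endothelial genes VWF and CDH5, the collagen genes COL1A2 and COL3A1 and the epithelial genes CDH1 and KRT5 were above background on no array, and the keratin genes KRT8, KRT14 and KRT18 were so on all 6. The endothelial gene PECAM1 and the myeloid gene LYZ were above background on 2 leflunomide and 3 DMSO arrays, and COL1A1, DCN, LUM, PDGFRA, EPCAM, CD14, CD3D and CD79A on 1 to 4 arrays. Their part in the results was not tested.

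The normalized transcript levels of FAS, of both TRAIL receptors with a death domain and of CFLAR were lower on leflunomide replicates 1 and 2 than on every DMSO array. In the normalization without replicate 3, 23.7% of all tested genes were separated in this way. Whether these 4 genes passed the test depended on leflunomide replicate 3 and, for all but TNFRSF10A, on the background estimate. In limma's comparison of all 6 arrays 0 of the 7 tested members passed an adjusted p of 0.05, with 2 of them, FAS and TNFRSF10A, at an unadjusted p under 0.05. Over all 12330 tested genes limma called 132 (1.07%), of which 103 (0.835%) were lower, and 16.9% had an unadjusted p under 0.05. Without leflunomide replicate 3, limma called 4 of the 7 lower, namely FAS, TNFRSF10A, TNFRSF10B and CFLAR, and 0 higher. In that comparison 1227 of all genes (9.95%) were called lower and 1152 (9.34%) higher, 2379 (19.3%) in all. The 7 tested members were above background on all 6 arrays, so none was admitted through the group where it was higher. The median log2 fold change of these 7, leflunomide over DMSO, was −0.22 with all arrays and −0.48 without replicate 3, where the medians over all genes were −0.0022 and 0.0057. Median scaling, used instead of quantile normalization, moved the median of all genes to −0.53 with 6 arrays and to −0.19 with 5, and the median of these 7 to −0.91 and −0.74.

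The sizes of these changes depended on how the background was estimated. Here the mean and SD of the negative controls were taken from rows whose detection p-values are ranks among the controls, which gave SDs of 5.87 to 12.2 on leflunomide arrays and 7.27 to 13.1 on DMSO arrays. Taken from all rows, the SDs were 179 to 244 and 215 to 249.7. With those parameters the log2 fold change of FAS was −0.088 over all arrays and −0.089 without replicate 3, and it passed in neither (limma's adjusted p = 0.14 and 0.12). TNFRSF10A was then at −0.13 and −0.17 and passed without replicate 3 (limma's adjusted p = 0.082 and 0.034). TNFRSF10B, at −0.31 and −0.56, and CFLAR, at −0.033 and −0.092, passed in neither (limma's adjusted p = 0.50 and 0.093 for TNFRSF10B, 0.75 and 0.086 for CFLAR). With no background correction all 4 passed without replicate 3, at −0.65 for FAS, −0.62 for TNFRSF10A, −0.49 for TNFRSF10B and −0.43 for CFLAR.

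**Figure D1:**
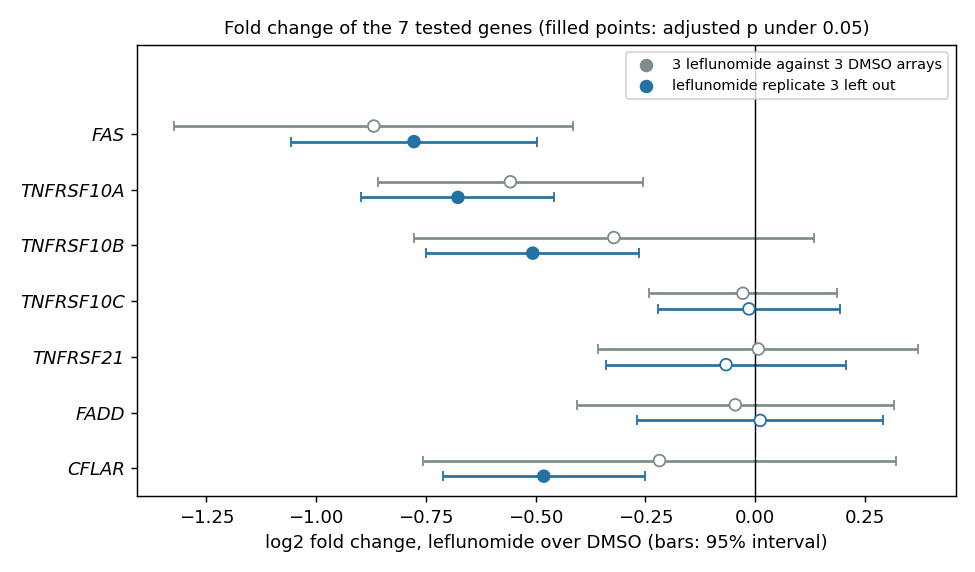
Log2 fold change (leflunomide over DMSO, horizontal axis) of the 7 tested genes with 95% intervals, in grey over all 6 arrays and in blue without leflunomide replicate 3. Filled points passed an adjusted p of 0.05 in limma over all genes. FAS, TNFRSF10A, TNFRSF10B and CFLAR lie at −0.48 or below without that array, and TNFRSF10C, TNFRSF21 and FADD lie within 0.07 of 0 in both comparisons.

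FAS, the receptor of FAS ligand, had the most negative log2 fold change of the 7 with the background correction used here, though not with control parameters from all rows. Its signal was 83.6, 106 and 48.1 on leflunomide arrays 1, 2 and 3, against 142, 187 and 127 on DMSO arrays 1, 2 and 3. All drug arrays lay below all DMSO arrays, and replicate 3, the dimmest array, was lowest. The detection p-values were 0.00073, 0.000222 and 0.00627 with leflunomide, against 7.81e-06, 3.47e-06 and 7.03e-05 with DMSO. These p-values are not ranks among the negative controls, as for a row that combines several probes, and probes that disagree cannot be seen. After normalization FAS was at 5.53 ± 0.29 with leflunomide and 6.39 ± 0.21 with DMSO (log2 intensity, SD, n = 3 each), and the groups still did not overlap. Such separation with lower drug values occurred in 15.3% of all genes. The log2 fold change was −0.87 ± 0.19 (SE), a 1.83-fold lower level, and did not pass (limma's adjusted p = 0.11). Without replicate 3 FAS fell 1.71-fold (log2 fold change −0.78 ± 0.13 SE, limma's adjusted p = 0.00145), a change more negative than that of all but 1.63% of the genes tested. The negative control means were 56.5, 59.6 and 36.8 on leflunomide arrays 1, 2 and 3, not far below the signals of FAS. Its folds and this rank therefore depend on the background estimate and the offset. An offset of 50 gave a log2 fold change of −0.57 over all arrays.

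The promoter of FAS is shown with that of CFLAR because both genes are members that were called lower together in the comparison without replicate 3. TNFRSF10A and TNFRSF10B were called lower as well, but 0 promoter windows were available for them. Each sequence runs 5′ to 3′ from 250 bases before to 50 bases after the most upstream transcript start that RefSeq lists for the gene in GRCh38.p14. It spans chr10:88990548-88990847 for FAS and chr2:201118466-201118765 for CFLAR, both on the plus strand. Capitals mark matches to the NF-kB motif GGGNNNNNCC or to the AP-1 motif TGANTCA, on either strand.
FAS: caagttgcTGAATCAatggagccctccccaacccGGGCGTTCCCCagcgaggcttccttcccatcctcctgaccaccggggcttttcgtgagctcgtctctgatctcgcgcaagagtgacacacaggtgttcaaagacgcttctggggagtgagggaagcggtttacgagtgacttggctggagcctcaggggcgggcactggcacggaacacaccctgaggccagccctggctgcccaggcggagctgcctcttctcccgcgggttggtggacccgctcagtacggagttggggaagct
CFLAR: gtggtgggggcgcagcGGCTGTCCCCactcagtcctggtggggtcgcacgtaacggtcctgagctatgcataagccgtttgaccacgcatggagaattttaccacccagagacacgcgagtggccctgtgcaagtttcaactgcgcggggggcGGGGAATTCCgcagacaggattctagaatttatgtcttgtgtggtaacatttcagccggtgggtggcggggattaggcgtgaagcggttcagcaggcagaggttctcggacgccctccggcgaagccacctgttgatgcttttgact
The FAS window held 2 overlapping matches to the NF-kB motif and 1 to the AP-1 motif, and the CFLAR window held 2 and 0. Each also held 1 match to the GC box GGGCGG, which in CFLAR overlaps an NF-kB match. Other transcript starts of the genes have windows that are not printed. Among the 3 windows of FAS, 3 held the NF-kB motif and 1, the printed one, the AP-1 motif. Among the 4 windows of CFLAR, 2 held the NF-kB motif and 1 the AP-1 motif. Of 35116 promoter windows of this length, 58.7% held the NF-kB motif, 7.71% the AP-1 motif and 45.0% the GC box. These matches describe the letters of the windows and show no binding.

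TNFRSF10A, also known as DR4, is the first of the TRAIL receptors that signal death. Its signal was 139, 168 and 74.7 on leflunomide arrays 1, 2 and 3, against 242, 283 and 252 on the DMSO arrays. The drug arrays were all lower, and on normalized values, too, the groups did not overlap. Of all tested genes 15.3% were separated with lower drug values in this way. The normalized level was 6.81 ± 0.18 with leflunomide and 7.37 ± 0.067 with DMSO (log2, SD, n = 3 each). It was 1.47-fold lower over all arrays (log2 fold change −0.56 ± 0.12 SE, limma's adjusted p = 0.11), which did not pass. Without replicate 3 it fell 1.60-fold (log2 fold change −0.68 ± 0.10 SE, limma's adjusted p = 0.00074). This was the lowest adjusted p among the members in that comparison.

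TNFRSF10B, also known as DR5, is the other TRAIL receptor with a death domain. Its signal was 401, 526 and 238 on leflunomide arrays 1, 2 and 3, against 671, 985 and 703 on the DMSO arrays. Before normalization every drug array was below every DMSO array. After it, leflunomide replicate 3, at 9.16, lay within the DMSO range of 8.98 to 9.27, while leflunomide replicates 1 and 2 were at 8.66 and 8.55. The log2 fold change was −0.32 ± 0.19 (SE, limma's adjusted p = 0.44) over all arrays. Without replicate 3 TNFRSF10B fell 1.42-fold (log2 fold change −0.51 ± 0.11 SE, limma's adjusted p = 0.0080), and the groups did not overlap. Of all tested genes 23.7% were separated with lower drug values in that comparison. Its detection p-values, like those of FAS, are not ranks.

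**Figure D2:**
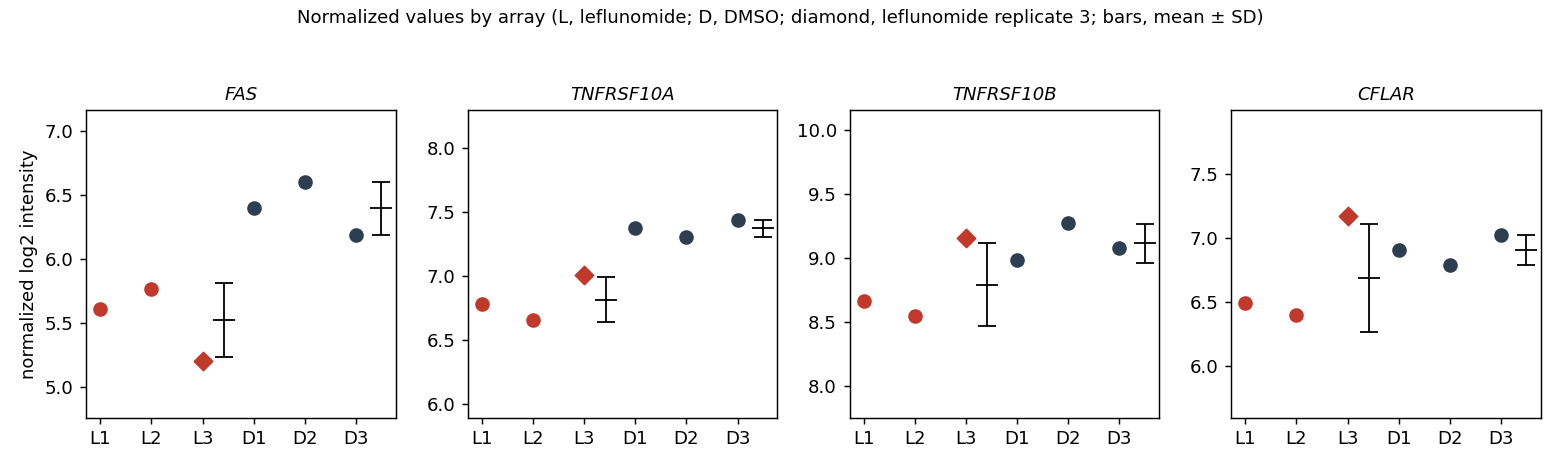
Normalized log2 intensity (vertical axis, the same span in every panel) of the 4 genes called lower without leflunomide replicate 3, on each leflunomide (L, red) and DMSO (D, dark) array, with mean and SD bars for n = 3. The diamond is leflunomide replicate 3. It is the lowest drug array for FAS and the highest for TNFRSF10A, TNFRSF10B and CFLAR, and for CFLAR, at 7.17, it lies above all DMSO arrays.

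CFLAR, the gene of the caspase-8 inhibitor c-FLIP, had a signal of 121, 146 and 80.3 on leflunomide arrays 1, 2 and 3, against 186, 207 and 199 on the DMSO arrays. On the normalized scale the drug arrays were at 6.49, 6.40 and 7.17, against 6.91, 6.79 and 7.02 for DMSO. Replicates 1 and 2 were thus below all DMSO arrays and replicate 3 above them. Over all arrays the log2 fold change was −0.22 ± 0.22 (SE, limma's adjusted p = 0.62). Without replicate 3 CFLAR fell 1.40-fold (log2 fold change −0.48 ± 0.11 SE, limma's adjusted p = 0.0079). In distance from the mean of leflunomide replicates 1 and 2, replicate 3 was at 0.73 for CFLAR, 0.55 for TNFRSF10B, 0.29 for TNFRSF10A and −0.48 for FAS. Over all tested genes 24.4% had a larger absolute distance than CFLAR and 62.6% a larger one than TNFRSF10A. CFLAR is spliced into long and short forms, and the file's row does not say which its probe reads.

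The decoy receptor gene TNFRSF10C was little above background. Its signal was 74.3, 84.6 and 48.1 on leflunomide arrays 1, 2 and 3, against 82.7, 91.5 and 83.9 on DMSO arrays, with detection p-values of 0.0132 to 0.025 and 0.0119 to 0.0132. The negative control mean was 36.8 to 59.6 on the leflunomide arrays and 56.8 to 59.1 on the DMSO arrays. The log2 fold change was −0.028 ± 0.088 (SE, limma's adjusted p = 0.88), with a 95% interval of −0.24 to 0.19. Without replicate 3 it was −0.014, with an interval of −0.22 to 0.19. At so low a signal the offset of 16 added before the logarithm pulls a fold change towards 0, so these intervals hold for the scale with the offset. TNFRSF10D, the other decoy receptor, had a signal of 34.7 to 54.5 on leflunomide arrays and 50.1 to 52.1 on DMSO arrays, and was above background on none.

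TNFRSF21, also called death receptor 6, had a signal of 6641, 8899 and 3670.4 on leflunomide arrays 1, 2 and 3, against 7421, 10346 and 8883 on the DMSO arrays. Its normalized level was 12.82 ± 0.14 with leflunomide and 12.81 ± 0.22 with DMSO (log2, SD, n = 3 each). The groups overlapped, and the log2 fold change was 0.0071 ± 0.15 (SE, limma's adjusted p = 0.98), with a 95% interval of −0.36 to 0.37. Without replicate 3 the value was −0.066 (interval −0.34 to 0.21, limma's adjusted p = 0.77).

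FADD, the adaptor that links FAS and the TRAIL receptors to caspase-8, had a signal of 714, 1029 and 281 on leflunomide arrays 1, 2 and 3, against 877, 1403 and 903 on the DMSO arrays. Normalized levels were 9.52 ± 0.094 with leflunomide and 9.56 ± 0.24 with DMSO (log2, SD, n = 3 each) and overlapped. The log2 fold change was −0.045 ± 0.15 (SE, limma's adjusted p = 0.88, 95% interval −0.41 to 0.32) with all arrays and 0.011 (limma's adjusted p = 0.97, interval −0.27 to 0.29) without replicate 3.

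CASP8, the initiator caspase of the pathway, gave a signal of 54.3, 58.9 and 37.6 on leflunomide arrays 1, 2 and 3, against 58.9, 62.4 and 59.7 on the DMSO arrays. DMSO replicate 2 alone was above background, with a detection p-value of 0.0333, and the gene was not tested. The detection p-values of CASP8, like those of FAS, are not ranks among the negative controls, and its exclusion rests on them. The ligand gene TNFSF10 had a signal of 54.4, 51.0 and 32.4 with leflunomide, against 49.8, 50.6 and 52.2 with DMSO, and was above background on no array. For CASP8, TNFSF10 and TNFRSF10D no fold change is given. A signal that is not above background sets only a limit on what the row's probes could detect, and A375 cells may still hold these transcripts.

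**Figure D3:**
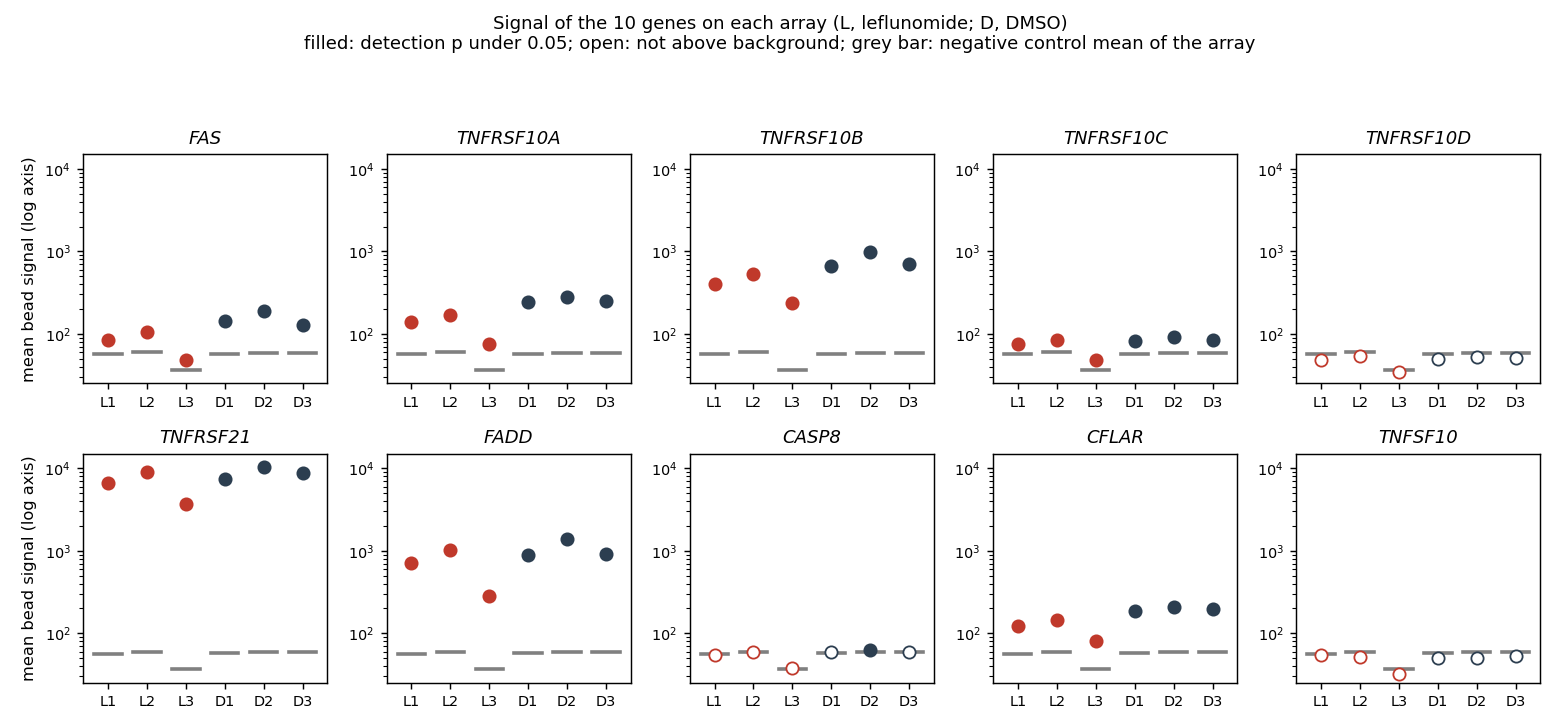
Mean bead signal (vertical log axis, not normalized) of the 10 genes on each leflunomide (L, red) and DMSO (D, dark) array. Filled points had a detection p under 0.05, open points did not, and grey bars mark the array's negative control mean. TNFRSF10D and TNFSF10 are open on all 6 arrays and CASP8 is filled on DMSO replicate 2 alone.

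Across these genes, signals of single probes or combined rows are not compared with each other, because bead signals of different probes have no common scale. The RNA came from whole cultures, so a lower signal cannot tell fewer expressing cells from less RNA per cell. Arrays also differ in overall brightness, and the raw signals of FADD and TNFRSF21 on leflunomide replicate 3 were the lowest of their rows as well.

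The genes whose 6-array pattern was closest to that of FAS were JUN, DUSP1 and SNAI2. Likeness was the root mean square difference of log2 values, each centred on the gene's own mean over the 6 arrays, and it was 0.056 for JUN, 0.059 for DUSP1 and 0.080 for SNAI2. JUN encodes a subunit of the AP-1 transcription factor, DUSP1 a phosphatase that inactivates MAP kinases, and SNAI2 a transcription factor of the neural crest. JUN was at 7.84, 7.89 and 7.33 on leflunomide arrays 1, 2 and 3, against 8.45, 8.67 and 8.30 on DMSO arrays. As with FAS, leflunomide replicate 3 was the lowest drug array and DMSO replicate 2 the highest of all. The log2 fold changes over all arrays were −0.79 for JUN, −0.82 for DUSP1 and −0.91 for SNAI2, none past the threshold (limma's adjusted p = 0.13, 0.098 and 0.0996). Without replicate 3 they were −0.61, −0.70 and −0.82, all past it (limma's adjusted p = 0.0037, 0.0029 and 0.00052). JUN, DUSP1 and SNAI2 were picked for their likeness to FAS on these same arrays. Their shared pattern and lower drug values therefore largely follow from that choice and are not separate results.

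Beyond the 10 members, 61 other genes of death receptor signalling were listed by role, of which 60 were on the array and 46 were tested. With all arrays limma called 1 of the 46 lower and 0 higher, with 1.07% of all genes called. Without leflunomide replicate 3 it called 6 lower and 3 higher, with 9.95% and 9.34% of all genes called in those directions. The median log2 fold change of the 46 was 0.050 with all arrays and −0.024 without replicate 3. Of the 9 calls, BIRC3 and EDA2R remained with median scaling of the same 5 arrays. EDA2R, also the gene called with all arrays, entered the test through the DMSO arrays, where it was higher. With control parameters from all rows BIRC2, BIRC3, CRADD and DIABLO remained, and SPTAN1 was called in addition.

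Among 7 other death receptors and soluble decoys, 6 were tested, and limma called 1 lower over all arrays, and 1 lower and 1 higher without leflunomide replicate 3. Of all tested genes 0.835% were called lower over all arrays, and 9.95% lower and 9.34% higher without that replicate. EDA2R, a receptor of ectodysplasin A2 and a known p53 target, had a signal of 61.5, 77.0 and 38.5 on leflunomide arrays 1, 2 and 3, against 104, 130 and 102 on the DMSO arrays. It was above background on leflunomide replicate 2 and on all DMSO arrays, and all drug arrays were lower. It thus entered the test through DMSO, where it was higher. EDA2R fell 2.10-fold (log2 fold change −1.07 ± 0.16 SE, limma's adjusted p = 0.046), and 2.15-fold without replicate 3 (limma's adjusted p = 0.00014), but it did not pass without any other 1 array (limma's adjusted p = 0.069 to 0.27). Because 2 of its 3 drug arrays were not above background, these folds depend on the offset and the control parameters. The log2 fold change was −0.58 with an offset of 50 and −0.071 with parameters from all rows, or −0.075 without replicate 3 (limma's adjusted p = 0.048, 0.097 and 0.067). NGFR, the p75 neurotrophin receptor with a death domain and a neural crest marker, was at 0.49 ± 0.14 (SE, limma's adjusted p = 0.15) and rose 1.44-fold without replicate 3 (limma's adjusted p = 0.015). Its signals were low, at 77.2, 94.2 and 50.1 on leflunomide arrays 1, 2 and 3, against 69.0, 89.5 and 71.3 on the DMSO arrays. On the same 5 arrays NGFR did not pass with median scaling (log2 fold change 0.32, limma's adjusted p = 0.46). Nor did it pass there with parameters from all rows (0.032, limma's adjusted p = 0.21). TNFRSF1A, the main receptor of tumour necrosis factor, had values of 0.32 over all arrays and 0.22 over the 5 without replicate 3 and passed in neither (limma's adjusted p = 0.35 and 0.23).

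The other ligand genes were at or near background. Of 4 listed, FASLG, the ligand of FAS, was above background on 0 arrays and LTA on 2 leflunomide arrays alone, and neither was tested. The other 2 passed in neither comparison. TNF, the founding cytokine of the family, was at 0.34 (limma's adjusted p = 0.52) and 0.071 without replicate 3, and TNFSF15 at 0.57 (limma's adjusted p = 0.58) and −0.041.

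Of the 13 receptor adaptors and complex II genes 10 were tested, and without replicate 3 limma called 1 lower and 0 higher, where 9.95% of all genes were lower. It was CRADD, an adaptor with a death domain and a caspase recruitment domain, at −0.36 ± 0.093 (SE, limma's adjusted p = 0.14) with all arrays and 1.32-fold lower without replicate 3 (limma's adjusted p = 0.013). The kinase gene RIPK1 was at −0.16 and −0.24, and MLKL, the executioner of necroptosis, at −0.15 and −0.23, and neither passed with all arrays (limma's adjusted p = 0.53 and 0.57) or without replicate 3 (limma's adjusted p = 0.11 and 0.20). Of the 13 regulators of receptor signalling 10 were tested, and here too limma called 1 lower and 0 higher, beside the same 9.95%. PEA15, whose death effector domain binds FADD and caspase-8, was at −0.27 (limma's adjusted p = 0.35) and fell 1.27-fold without replicate 3 (limma's adjusted p = 0.037). FAF1, a FAS-associated factor, was at 0.31 and 0.28, and FAIM, an inhibitor of FAS-induced apoptosis, at −0.071 and 0.39, and neither passed in the comparison without replicate 3 (limma's adjusted p = 0.087 and 0.069).

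Of the 5 other caspases counted here 3 were tested and 0 passed limma's threshold in either comparison, with 0 at an unadjusted p under 0.05 over all arrays. CASP10 and CASP4 had a detection p under 0.05 on 0 arrays and were not tested. The signal of CASP4 was nevertheless 177, 244 and 93.1 on leflunomide arrays 1, 2 and 3, against 301, 298 and 266 on the DMSO arrays. Negative control means were 36.8 to 59.6, so its detection p-values do not show that the transcript is absent. CASP6, an effector caspase, had values of −0.27 ± 0.24 over all arrays (SE, limma's adjusted p = 0.58) and −0.014 over the 5 without replicate 3 (limma's adjusted p = 0.96). CASP9, the initiator caspase of the mitochondrial arm, was at 0.15 and −0.0082, and CASP2 at 0.19 and 0.13 (limma's adjusted p = 0.64 and 0.97 for CASP9, 0.47 and 0.46 for CASP2).

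Of 11 genes of the mitochondrial arm and inhibitors of caspases 9 were tested and 0 passed with all arrays. Without leflunomide replicate 3 limma called 3 lower and 2 higher, where 9.95% and 9.34% of all genes were called, and with median scaling of the same 5 arrays BIRC3 alone passed. BIRC3, a ubiquitin ligase (cIAP2) at the receptor complex and a known NF-kB target, had a signal of 451, 687 and 299 on leflunomide arrays 1, 2 and 3, against 1212, 1437 and 1259.9 on the DMSO arrays. All drug arrays were lower, and its log2 fold change was −0.80 ± 0.19 (SE, limma's adjusted p = 0.12) with all arrays. Without replicate 3 BIRC3 fell 1.99-fold (log2 fold change −0.99 ± 0.099 SE, limma's adjusted p = 3.3e-05). Its relative BIRC2 (cIAP1) was at −0.26 with all arrays (limma's adjusted p = 0.36) and fell 1.29-fold without replicate 3 (limma's adjusted p = 0.021). BIRC5, which encodes survivin and is also a mitotic gene, was at 0.68 (limma's adjusted p = 0.28) and rose 1.30-fold without replicate 3 (limma's adjusted p = 0.025), although under median scaling of all 6 arrays it was at −0.049, above the −0.53 of all genes. DIABLO, an antagonist of the inhibitors of apoptosis, and BIRC6, both named after their values were seen, were at −0.33 and 0.33 without replicate 3 (limma's adjusted p = 0.037 and 0.034) and at −0.083 and 0.45 with all arrays (limma's adjusted p = 0.86 and 0.19). BID, the substrate through which caspase-8 engages mitochondria, had a detection p under 0.05 on leflunomide replicate 3 alone and was not tested. Its signal was 157, 218 and 80.2 on leflunomide arrays 1, 2 and 3, against 172, 188 and 173 on the DMSO arrays. Negative control means were 36.8 to 59.6, so its detection p-values do not show that the transcript is absent.

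**Figure D4:**
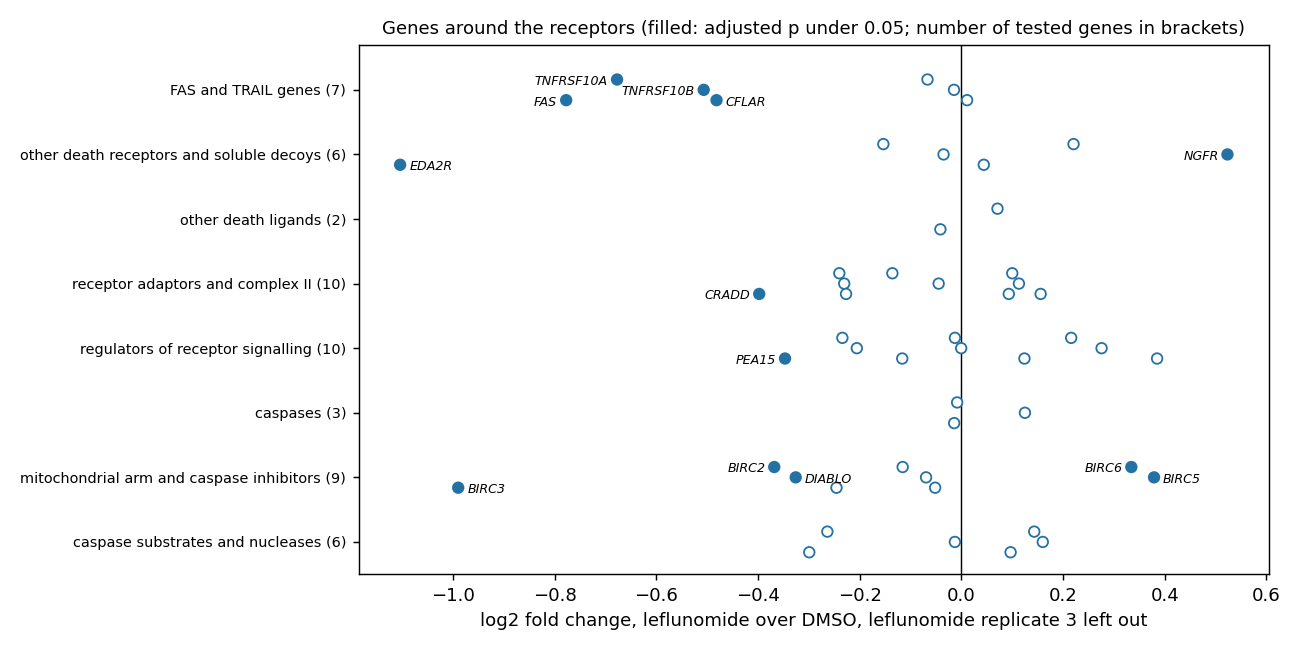
Log2 fold change without leflunomide replicate 3 (leflunomide over DMSO, horizontal axis) of the 7 tested members (top row) and of the 46 other tested genes by role. Filled, named points passed an adjusted p of 0.05 in limma over all genes. EDA2R at −1.10 and BIRC3 at −0.99 lie furthest to the left, and NGFR at 0.52 furthest to the right. EDA2R entered the test through the DMSO arrays, where it was higher.

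Of 8 caspase substrates and nucleases 6 were tested and 0 passed limma's threshold in either comparison, with 0 at an unadjusted p under 0.05 over all arrays. The DNA repair enzyme gene PARP1, whose product is cleaved in apoptosis, had values of 0.20 over all arrays and 0.16 over the 5 without replicate 3 (limma's adjusted p = 0.40 and 0.31). DFFA, the inhibitor of the apoptotic nuclease, was at −0.10 and −0.30 (limma's adjusted p = 0.79 and 0.071), and the cytoskeletal gene SPTAN1 at 0.036 and −0.26 (limma's adjusted p = 0.95 and 0.074).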

How the data were processed

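RNA of A375 cells was measured on 3 leflunomide and 3 DMSO arrays. The authors deposited linear intensity values, the mean signal of a row's beads, per the file headers. The submitters' processing notes name GenomeStudio. The arrays had not been brought to a common level. Beside each intensity they deposited a detection p-value against the array's negative control beads, per the file headers. Its version is not stated, and neither are any background step, the build or the annotation of probes. The file held 38275 rows, and 25438 had a symbol. Of these 14193 symbols were current in RefSeq (GRCh38.p14, used for names), 3625 were renamed through an unambiguous synonym, 7598 kept the file's name and 22 had become dates and were left out.

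The normexp model of limma 3.58.1 (R 4.3.3) was used to correct background, with negative control parameters from the 32290 rows whose detection p-values are ranks among 759 controls (tolerance 0.001), offset 16 and quantile normalization. Rows with a detection p under 0.05 on at least 3 arrays were kept, with 1 row of the highest mean per symbol, which left 12330 genes. The drug and solvent arrays were compared in limma with Benjamini-Hochberg adjustment over all of them, at 0.05. The precision is limited by the 6 arrays. The fit was tested on simulated data. The arrays were simulated with the spread of the DMSO arrays, without an outlying array and without a background step. The simulation therefore does not cover the effect of leflunomide replicate 3 on the fit.

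The members, the pathway lists and the decision to show results without leflunomide replicate 3 were chosen with earlier results of these data known. The caspase list is given without 2 genes that are not reported here. Named are all members, up to 3 tested genes of each pathway list with the largest absolute log2 fold change without that array, and the 3 genes closest to the member with the largest change. Alternatives changed the background correction, offset, scaling, detection filter, variance model, array weights, replicate block and the arrays included. A second deposited table of 48803 probes carries no gene names and was not used here.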

Additional observations from a re-analysis of the deposited data

How the results depend on the processing

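FAS, TNFRSF10A, TNFRSF10B and CFLAR had negative log2 fold changes in all 19 alternatives run, of −1.29 to −0.088, −1.25 to −0.13, −1.06 to −0.20 and −0.91 to −0.033. All alternatives refit the same arrays and are not independent of each other. The detection filters, the intensity trend and the replicate block on all arrays left these fold changes unchanged, so their sign could not turn there. The most negative value came from median scaling of 6 arrays, and the one nearest 0 from control parameters from all rows for FAS, TNFRSF10A and CFLAR and from leaving out leflunomide replicate 2 for TNFRSF10B. An offset of 50 gave −0.57 for FAS. Their adjusted p-values from limma ranged between 9.7e-06 and 0.86 over these. Members past the threshold numbered 4 without leflunomide replicate 3, with array weights (0.0684 for that array, 1.19 to 2.85 for the others), and without that array also with the replicate block, with median scaling and with no background correction. They numbered 1, TNFRSF10A, without that array with parameters from all rows, and 0 in the other 13. Median scaling, no background correction and parameters from all rows on 5 arrays were chosen after seeing the data. Leaving out 1 array gave 0 to 4 members, 3 to 2379 genes over all and 0 to 9 pathway genes, the highest each time without leflunomide replicate 3. Over all genes limma called 2549 with array weights, 2137 with the replicate block without that array, 737 with median scaling, 2529 with no background correction and 685 with parameters from all rows without it, 4 with the replicate block and 0 with median scaling of 6 arrays (1673 at an unadjusted p under 0.05, from limma). Pathway genes past the threshold numbered 10 with array weights, 7 with the replicate block without leflunomide replicate 3, 2 (BIRC3 and EDA2R) with median scaling, 9 with no background correction and 5 with parameters from all rows without it, and 0 with no background correction, no detection filter, median scaling or the replicate block. With negative control parameters from all rows the 1 called pathway gene was CRADD in place of EDA2R. JUN, DUSP1 and SNAI2 did not pass on 5 arrays with parameters from all rows (limma's adjusted p = 0.11, 0.096 and 0.084). The adjusted p of EDA2R from limma was 0.00014 without leflunomide replicate 3 and 0.069 to 0.27 without another array.

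The replicate numbers are shared by the treatments, but the main comparison did not take same-numbered arrays as pairs. Deviations of same-numbered arrays from their group means correlated at −0.0092, 0.206 and 0.215. The leflunomide means include replicate 3, which differed from the rest, so these correlations cannot decide whether the arrays are pairs. With the replicate block alone limma's adjusted p of FAS was 0.14 and no member passed. Without leflunomide replicate 3 it was 9.7e-06 with the block and 0.00145 with no block. In that block fit DMSO replicate 3 has no partner, so the drug effect rests on the arrays numbered 1 and 2. The p-value with the block thus leans mostly on the variance that limma shares across genes.

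Signs turned for several genes, among them BIRC5, TNFSF15, BIRC6, TNFRSF1A and FAF1, at 0.68, 0.57, 0.45, 0.32 and 0.31 with all arrays. Median scaling of 6 arrays gave log2 fold changes of −0.049 for BIRC5, −0.23 for BIRC6, −0.54 for CASP2, −0.52 for CASP9, −0.43 for FAF1, −0.37 for PARP1, −0.68 for SPTAN1, −0.33 for TNFRSF1A, −0.49 for TNFRSF21 and −0.10 for TNFSF15, beside the −0.53 of all genes. Without leflunomide replicate 3 it gave −0.14 for CASP2, −0.26 for CASP9, −0.0043 for FAF1, 0.16 for FAIM, −0.00067 for PARP1, −0.53 for SPTAN1, −0.17 for TNFRSF21 and −0.28 for TNFSF15, beside −0.19 for all genes. Array weights gave 0.037 for FADD, 0.30 for FAIM, −0.24 for SPTAN1 and −0.036 for TNFRSF21. The replicate block without leflunomide replicate 3 gave 0.26 for FAIM and −0.27 for SPTAN1, and parameters from all rows gave 6.8e-05 for FAIM. Leaving out 1 array gave −0.13 to 0.093 for FADD, −0.12 to 0.079 for TNFRSF21, −0.0082 to 0.22 for CASP9, −0.30 to 0.045 for DFFA, −0.33 to 0.052 for DIABLO, −0.32 to 0.39 for FAIM, −0.26 to 0.20 for SPTAN1 and −0.041 to 0.89 for TNFSF15. On 5 arrays no background correction and parameters from all rows gave −0.066 and −0.068 for TNFRSF21, 0.011 and 0.016 for FADD, −0.034 and −0.0045 for TNFSF15, 0.31 and 0.032 for FAIM, −0.0076 and −0.0023 for CASP9, and −0.26 and −0.35 for SPTAN1. The cause was not tested. The deposited value table was not run as an alternative, since its probes could not be named. Rows near the negative controls, such as TNFRSF10C, limit what these arrays can show.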
